A study of Mus musculus with 43 samples.

Results

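The clustered protocadherins were taken as the protein-coding rows of the count table whose symbols start with Pcdha, Pcdhac, Pcdhb followed by a number, or Pcdhga, Pcdhgb and Pcdhgc. The rule gave 58 of the 56980 genes in the table: 14 in the alpha cluster, 22 in the beta cluster and 22 in the gamma cluster. The samples were cortical layer 2/3 (L2/3) excitatory neurons of C57BL/6JRccHsd mice that were WT, Cux1 knockout (KO) or Cux2 KO, the genes of a pair of related homeobox transcription factors made by these neurons. The cells were labelled with GFP by in utero electroporation and collected by sorting of GFP-positive cells from the somatosensory cortex. There were 43 libraries in 13 groups. At embryonic day 19 (E19) there were 4 female and 4 male libraries of each of the 3 genotypes. At postnatal day 4 (P4) there were 3 female and 3 male WT libraries, 3 female and 3 male Cux2 KO libraries, and 2 male Cux1 KO libraries. At postnatal day 7 (P7) there were 2 female and 3 male WT libraries. Cux2 KO mice carried a germline Cux2-/- genotype at both ages. The Cux1 KO differed between ages. At E19 it was a germline Cux1 ∆C/∆C genotype. At P4 it was a floxed allele over ∆23 that CRE recombined in the electroporated cells alone, so that the surrounding cortex was heterozygous and kept CUX1 from the floxed allele. By the paper, only these P4 mice received a CRE plasmid, and the other groups received the GFP plasmid alone. The presence of CRE and the loss of Cux1 therefore cannot be told apart at P4.

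Clustered protocadherins are homophilic cell adhesion proteins that give single neurons a surface identity and act in dendrite self-avoidance and synapse formation. In the alpha and gamma clusters each variable first exon has its own promoter and is spliced to constant exons shared by the whole cluster. The beta genes are mostly single exons. Most variable promoters are chosen at random in each cell through CTCF and cohesin looping, while the C-type isoforms (Pcdhac1, Pcdhac2, Pcdhgc3, Pcdhgc4 and Pcdhgc5) follow a more constitutive or cell-type-specific pattern.

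All 58 genes lie on the plus strand of chromosome 18 in the GRCm39 build. The alpha genes cover chr18:37063237-37320716, the beta genes chr18:37397991-37657532 and the gamma genes chr18:37794846-37975014. Because the alpha rows share their constant exons with one another, and so do the gamma rows, a read in a constant exon cannot be given to one isoform, and a gene's count rests on its variable exon. The table listed Pcdhga10, which has no exonic base of its own in the annotation, at 0 in all 43 libraries, and Pcdha4 and Pcdha11, with 7.0% and 16.6% of their exonic bases unshared, were close to 0. Pcdhb1 had no counts except 27 in the library Cux2 KO P4 male 3. Those 4 genes passed the filter on low counts in no comparison, and Pcdha1 only in that of WT females and males at P7, so that at most 53 of 58 genes were tested at once.

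The 24 E19 libraries held 13321095 to 20715732 counts, the 14 P4 libraries 19499125 to 60559585 and the 5 P7 libraries 15312029 to 27633827. E19 libraries were sequenced in another round than P4 and P7 libraries, so stage and sequencing round cannot be told apart. The 2 Cux1 KO P4 libraries stood apart: they held 17049 and 19115 detected genes against 20844 or more in every other P4 library, and correlated least with each other (r = 0.860 across genes). The counts cover each targeted gene as a whole, with the parts outside a deletion, and so do not check the labels. Cux1 was at 330.8 ± 33.9 CPM (counts scaled to library size; SD, n = 8) in Cux1 KO and 411.8 ± 67.3 (n = 8) in WT, a log2 fold change (log2FC) of -0.33 (adjusted p = 0.083). Cux2 was at 350.6 ± 55.0 CPM in Cux2 KO and 434.2 ± 69.7 in WT (n = 8 each; log2FC -0.31, adjusted p = 0.354). At P4 neither gene was lower in its mutant: Cux1 was at 125.8 CPM in the 2 Cux1 KO libraries and 114.8 in the 3 WT males (log2FC 0.12, adjusted p = 0.912), and Cux2 at 41.0 CPM in Cux2 KO and 34.8 in WT (n = 6 each; log2FC 0.23, adjusted p = 0.966). Nothing in the labels says that replicates came from separate animals, so the p-values measure only the spread between these libraries.

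In WT neurons at E19 the gamma cluster gave the most reads of the 3 clusters and the alpha cluster the fewest. The summed CPM of the gamma members ran from 294.7 through a median of 336.4 to 428.5 over the 8 WT libraries. The beta sum ran from 96.7 through 133.9 to 161.2 CPM, and the alpha sum from 24.4 through 39.5 to 52.4 CPM. The order of the 3 sums was the same in each of these libraries, since their ranges do not overlap. Between 52 and 54 of the 58 members had more than 3 counts after scaling to the shallowest library (0.225 CPM). Thus nearly every isoform was present in each WT pool at E19.

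The gamma and alpha clusters each had a C-type isoform that took most reads of any member at E19, before any correction for length. Pcdhgc3 took most gamma reads in 24 of 24 E19 libraries, at 86.9 ± 12.9 CPM in WT (n = 8), which was 24.75% ± 1.31 of the gamma reads. Pcdhgc4, the C-type isoform that is needed for survival of cortical interneurons, was at 40.8 ± 7.52 CPM, and the B-type Pcdhgb6 at 33.4 ± 3.35 CPM. Pcdhgc5, the last gamma C-type isoform, was at 5.78 ± 0.924 CPM. Pcdhac2, the alpha isoform of serotonergic axon tiling, took most alpha reads in 23 of 24 E19 libraries, at 10.4 ± 2.98 CPM in WT, and Pcdhac1 was at 1.50 ± 0.702 CPM. The beta cluster, which has no C-type isoform, had most reads from Pcdhb17 in 17 libraries, Pcdhb7 in 5 and Pcdhb20 in 2, so its top member by reads changed from library to library. In WT these 3 genes were at 18.9 ± 3.77, 13.9 ± 3.41 and 11.9 ± 1.82 CPM.

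Levels of different genes were compared per kilobase of the exonic bases that no other row shares. On that scale (CPM per kb, mean of 8 WT E19 libraries) Pcdhgc3 was at 47.7, Pcdhgb6 at 13.8, Pcdhga11 at 13.0 and Pcdhgc4 at 11.1, so that Pcdhgc4 came after the A-type and B-type isoforms Pcdhga11 and Pcdhgb6. The 2 genes that rose in Cux2 KO neurons were among the low gamma members on the same scale, Pcdhgb5 at 1.83 and Pcdhgb8 at 1.21, next to Pcdhgc5 at 1.24 and Pcdhga9 at 1.16, the lowest tested gamma gene. The highest beta genes were Pcdhb17 at 4.06 and Pcdhb7 at 3.98, and the lowest tested ones Pcdhb13 at 0.469 and Pcdhb21 at 0.455. The highest alpha genes were Pcdhac2 at 3.30, Pcdha12 at 2.57 and Pcdha9 at 2.12, and the lowest outside those near 0 were Pcdha8 at 0.349 and Pcdha1 at 0.167. Pcdhgc5, Pcdhgb8 and Pcdhga9 did not differ from one another beyond the spread of Pcdhgb8 between libraries, nor Pcdhb17 from Pcdhb7 or Pcdhac2 from Pcdha12 beyond theirs, whereas the step from Pcdhgc3 to the next gamma gene exceeded the spread of both.

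**Figure D1:**
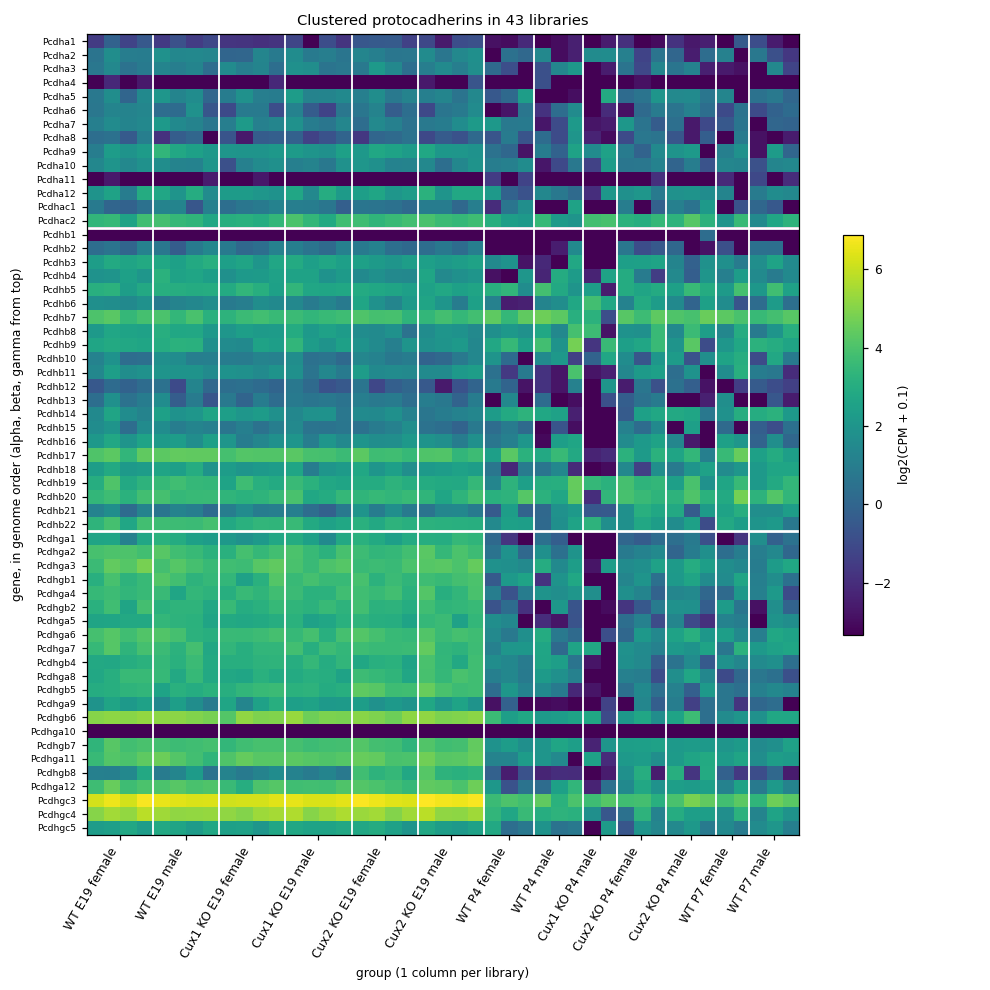
Level of each of the 58 clustered protocadherin genes (rows, in genome order by cluster) in each of the 43 libraries (columns, by group), as log2(CPM + 0.1). Rows of the E19 libraries look alike from column to column, while the P4 and P7 columns, most of all the 2 Cux1 KO P4 columns, mix high and empty cells for the same gene.

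Cux2 KO neurons at E19 had more Pcdhgb8 and Pcdhgb5 RNA and less Pcdhb8 and Pcdhb9 RNA than WT neurons of the same age. The comparison asks how loss of Cux2 changed gene expression, with both sexes in one fit that has sex as a term. Here a gene was called a DEG at an adjusted p under 0.05 and an absolute log2FC over 0.5. These 4 were the members called of 53 tested, while 0.0986% of all 17242 genes tested were called (17 genes). Percentages in brackets beside counts of members are shares of all genes tested that met the same criterion.

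Pcdhgb8 is a B-type gamma isoform (chr18:37894854-37974923, 54.1% of its exonic bases unshared). In WT E19 libraries its level was 2.10, 2.00, 2.61 and 7.11 CPM in the females and 1.81, 2.43, 4.78 and 1.36 CPM in the males. In Cux2 KO libraries it was 13.3, 9.47, 11.1 and 6.84 CPM in the females and 18.1, 9.65, 8.73 and 9.76 CPM in the males. All Cux2 KO libraries but female 4 lay above every WT library, and WT female 4 was the WT library that overlapped. Pcdhgb8 rose from 3.02 ± 1.94 to 10.9 CPM on average, with a log2FC of 1.85 (SE 0.292, adjusted p = 0.00662). A change in how many cells use an isoform and a change in RNA per cell cannot be told apart in such pooled samples.

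Pcdhgb5, another B-type gamma isoform (chr18:37864019-37975014, 67.8% unshared), starts 30835 bases before Pcdhgb8. It was at 7.86, 8.43, 9.92 and 10.4 CPM in the WT E19 females and at 6.00, 8.86, 7.88 and 8.94 CPM in the WT males. In Cux2 KO libraries it was at 20.03, 18.4, 13.1 and 13.4 CPM in the females and at 22.9, 15.2, 12.8 and 13.4 CPM in the males. Every Cux2 KO library exceeded every WT library, as in 0.128% of all genes where the groups did not overlap in either direction. The rise was 1.90-fold (log2FC 0.92, SE 0.145, adjusted p = 0.00662). Both isoforms also took more of the gamma reads: the Pcdhgb8 share was 0.844% ± 0.463 in WT and 2.72% ± 0.573 in Cux2 KO, and the Pcdhgb5 share 2.47% ± 0.492 and 4.08% ± 0.646 (n = 8 each).

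The variable exons nearest to them did not pass the test. The starts of Pcdhga11 and Pcdhga12 lie 6082 and 3779 bases from that of Pcdhgb8, and their log2FC was 0.30 and 0.07. The starts of Pcdhga8 and Pcdhga9 lie 5278 and 5938 bases from that of Pcdhgb5, and their log2FC was 0.33 and 0.22. Pcdhgc3 had a log2FC of 0.22 (adjusted p = 0.494). Over the 21 gamma members tested, 16 had a higher mean in Cux2 KO and the median log2FC was 0.11, beside 0.00 over all genes. The gamma sum was 351.1 ± 49.1 CPM in WT and 394.8 ± 56.6 in Cux2 KO, ranges that overlap.

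Pcdhb8 (chr18:37488174-37491657, all exonic bases unshared) fell in Cux2 KO neurons. It was at 4.44, 6.44, 5.92 and 5.69 CPM in the WT E19 females and at 8.28, 6.75, 6.89 and 4.22 CPM in the WT males. In Cux2 KO libraries it was at 3.04, 2.85, 3.44 and 1.32 CPM in the females and at 2.99, 3.94, 3.62 and 2.71 CPM in the males. No Cux2 KO library reached the lowest WT library. The log2FC was -1.02 (SE 0.187, adjusted p = 0.0253). The call was near the threshold: the gene was called in 7 of the 16 fits that left out 1 library (adjusted p 0.0113 to 0.0724), and not without Cux2 KO female 2 or males 1, 3 or 4, WT female 2 or 3, or WT male 1, 2 or 3.

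Pcdhb9 (chr18:37533908-37550127), whose start lies 45734 bases downstream, fell as well. It was at 6.30, 7.27, 6.81 and 6.31 CPM in the WT females and at 7.87, 9.02, 8.88 and 3.29 CPM in the WT males. In Cux2 KO libraries it was at 3.62, 2.85, 2.02 and 3.75 CPM in the females and at 3.36, 3.74, 4.33 and 2.51 CPM in the males. WT male 4 was the single WT library within the Cux2 KO range. The log2FC was -1.09 (SE 0.199, adjusted p = 0.0251), and the gene was called in 7 of 16 fits without 1 library (adjusted p 0.00188 to 0.0757), and not without Cux2 KO female 2 or 3 or male 4, WT female 1, 2 or 3, or WT male 1, 2 or 3. Pcdhgb8 and Pcdhgb5 were called in 16 of 16 such fits.

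The beta cluster as a list lay below WT. Of 21 beta members tested, 19 had a lower mean in Cux2 KO neurons and the median log2FC was -0.40, where the median of all genes was 0.00. At an unadjusted p under 0.05, 11 beta members were lower and 1, Pcdhb6 (log2FC 0.61), was higher, (8.76% in either direction). Members that did not pass included Pcdhb14 (log2FC -0.79, adjusted p = 0.315), Pcdhb22 (-0.48, adjusted p = 0.285), Pcdhb10 (-0.39) and Pcdhb7 (-0.07). The beta sum was 132.6 ± 19.98 CPM in WT and 103.7 ± 10.1 in Cux2 KO (n = 8 each). The Cux2 KO sums ran from 91.9 to 122.6 CPM and the WT sums from 96.7 to 161.2 CPM, so they overlap. The alpha list had a median log2FC of -0.07 and no member called. The summed markers of each of 9 other and own cell types, interneurons, astrocytes and endothelium among them, overlapped between Cux2 KO and WT at E19. Overlap does not show equal levels: ependymal markers ran from 11.7 to 233.9 CPM in Cux2 KO and from 11.2 to 40.2 CPM in WT. The part of any of these markers in the member values was not tested.

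**Figure D2:**
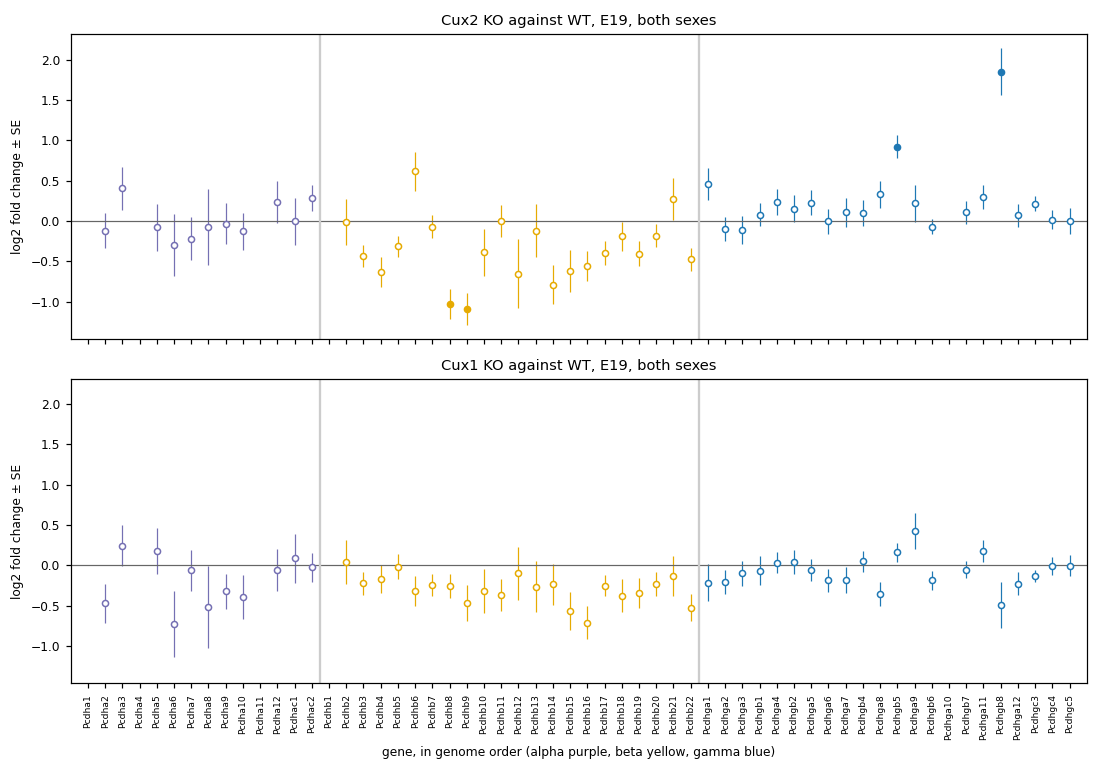
Log2 fold change with its SE (vertical axis) of each tested member at E19, in genome order and coloured by cluster, for Cux2 KO against WT and for Cux1 KO against WT, both sexes together. Filled points are called: Pcdhgb8 and Pcdhgb5 above 0 and Pcdhb8 and Pcdhb9 below 0 in the Cux2 panel, with log2FC of 1.85, 0.92, -1.02 and -1.09, and none in the Cux1 panel.

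Split by sex, the same 4 genes kept their direction with larger errors. In females 0 of 53 members were called by edgeR (0.0287%) and 5 had an unadjusted p under 0.05 (4.62%). DESeq2 with its prior called 3 (0.104%), Pcdhb9, Pcdhgb5 and Pcdhgb8. The female log2FC was 1.57 for Pcdhgb8 (adjusted p = 0.567), 0.84 for Pcdhgb5 (adjusted p = 0.485), -1.06 for Pcdhb8 and -1.11 for Pcdhb9. Without WT female 4, the high library for Pcdhgb8, that gene alone was called (log2FC 2.19, adjusted p = 0.013). In males 0 of 52 were called by edgeR (0.121%) and 14 had an unadjusted p under 0.05 (7.94%). DESeq2 with its prior called 3 (0.363%), Pcdhb14, Pcdhgb5 and Pcdhgb8. The male log2FC was 2.13 for Pcdhgb8 (SE 0.376, adjusted p = 0.0636), 1.00 for Pcdhgb5 (adjusted p = 0.237) and -1.27 for Pcdhb14 (adjusted p = 0.266). Without WT male 3, Pcdhgb8 was called with a log2FC of 2.61 (adjusted p = 0.0184).

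The genotype effect at E19 was not shown to differ between the sexes. The interaction of genotype and sex was called for 0 of 53 members by edgeR (0%) and for 0 by DESeq2 without its prior (0%), and 4 members had an unadjusted p under 0.05 (3.78%). The interaction was 0.56 on the log2 scale for Pcdhgb8 (SE 0.573, adjusted p = 0.979) and 0.16 for Pcdhgb5 (adjusted p = 0.979).

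At E19 edgeR called no clustered protocadherin between Cux1 KO and WT neurons. With both sexes, edgeR called 0 of 53 members (0.25%), DESeq2 with its prior called 0 (0.193%) and without it 1 (0.891%), Pcdhb16, and 4 members had an unadjusted p under 0.05 (13.1%). All 4 were lower in Cux1 KO: Pcdhb16 (log2FC -0.71, adjusted p = 0.129), Pcdhb15 (-0.56), Pcdhb22 (-0.53, adjusted p = 0.177) and Pcdhga8 (-0.35). Pcdhgb8 was at 2.29, 1.68, 2.25 and 2.98 CPM in the Cux1 KO females and at 2.21, 1.78, 2.36 and 1.64 CPM in the males. Pcdhgb5 was at 8.25, 10.5, 11.6 and 12.4 CPM in the females and at 9.08, 9.50, 7.70 and 8.30 CPM in the males. For Pcdhgb8 the Cux1 KO libraries lay within the WT range. For Pcdhgb5 Cux1 KO females 2, 3 and 4 lay above the highest WT library, and every Cux1 KO library was below the lowest Cux2 KO library, the nearest at 12.4 against 12.8 CPM.

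The beta list was also below WT in Cux1 KO neurons. Of 21 beta members, 20 had a lower mean and the median log2FC was -0.26, beside 0.00 over all genes, -0.06 over the alpha and -0.07 over the gamma members. The beta sum was 108.9 ± 16.7 CPM in Cux1 KO and 132.6 ± 19.98 in WT (n = 8 each), with overlapping ranges. This comparison used the WT libraries that the Cux2 KO comparison used, so the lower beta means of the 2 mutants are not independent of each other. In females edgeR called 0 of 53 members (0.0576%) and DESeq2 with its prior 0 (0.168%), with 5 at an unadjusted p under 0.05 (6.87%). In males edgeR called 0 of 53 (0.0979%) and DESeq2 with its prior 0 (0.457%), with 6 at an unadjusted p under 0.05 (10.4%). The interaction of Cux1 genotype and sex was called for 0 members by edgeR (0%) and by DESeq2 without its prior (0%), with 1 at an unadjusted p under 0.05 (3.81%).

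Set against each other without the WT libraries, the 2 mutants at E19 differed in Pcdhgb8. In females the gene was at 10.2 CPM in Cux2 KO and 2.30 CPM in Cux1 KO, 4.44-fold higher (log2FC 2.15, SE 0.252, adjusted p = 0.000984). In males it was at 11.6 and 2.00 CPM, 5.83-fold higher (log2FC 2.54, SE 0.276, adjusted p = 0.00148). In both sexes the lowest Cux2 KO library was above the highest Cux1 KO library, as in 4.36% of all genes in females and 3.42% in males. Pcdhgb8 was the 1 member called of 53 in females (1.34%) and of 52 in males (0.378%).

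Pcdhgb5 was higher in the Cux2 KO than in the Cux1 KO libraries without overlap in both sexes, as in 4.36% of all genes in females and 3.42% in males. It was not called, with a log2FC of 0.61 in females (adjusted p = 0.158) and 0.91 in males (adjusted p = 0.0949). In males DESeq2 with its prior called 3 members (1.8%), Pcdhgb8, Pcdhgb5 and Pcdhga8, and edgeR gave Pcdhga8 a log2FC of 0.89 (adjusted p = 0.079). Pcdhb8 had a log2FC of -0.78 in females (adjusted p = 0.276) and -0.75 in males (adjusted p = 0.221). The beta list had medians of -0.01 and -0.06, so the 2 mutants were close to each other in the cluster where both lay below WT. The gamma medians were 0.11 and 0.26.

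**Figure D3:**
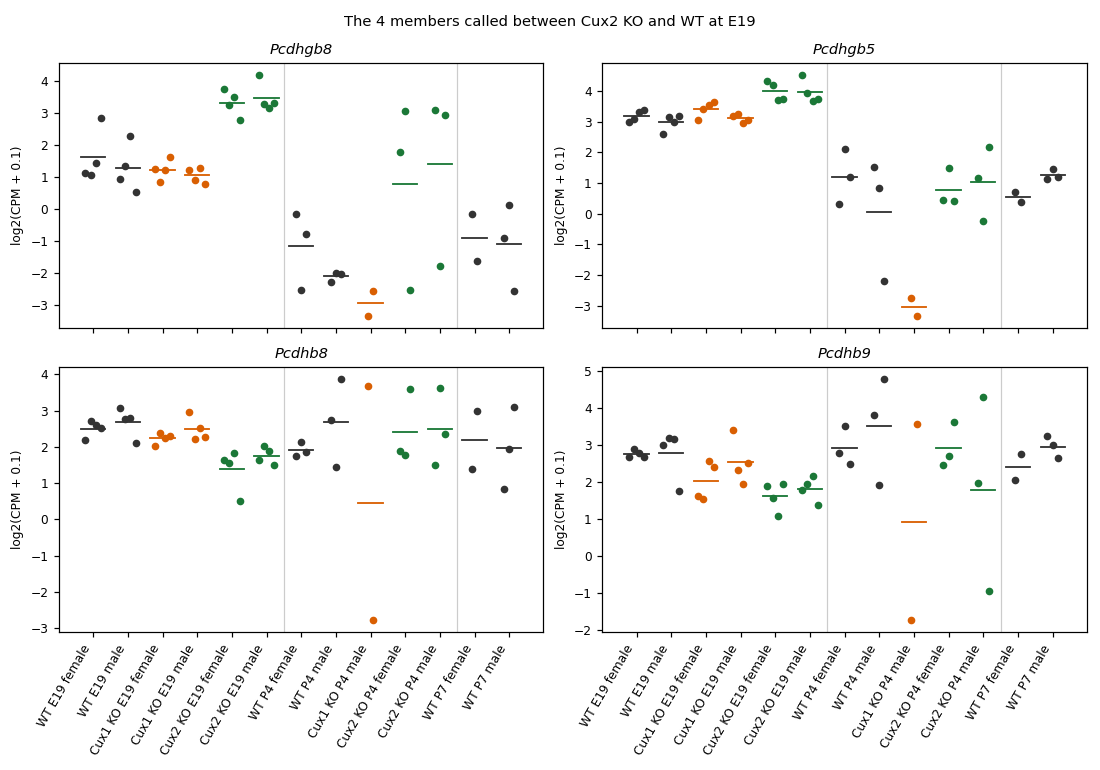
Level of Pcdhgb8, Pcdhgb5, Pcdhb8 and Pcdhb9 in each library as log2(CPM + 0.1), by genotype, stage and sex, with bars at the group means of the log values. At E19 the Cux2 KO points lie between 6.84 and 18.1 CPM for Pcdhgb8 and between 12.8 and 22.9 CPM for Pcdhgb5, whereas at P4 the Cux2 KO points for Pcdhgb8 split between 3.37 to 8.36 CPM and 0.0724 to 0.195 CPM.

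From E19 to P4 the gamma cluster of WT neurons fell as a whole. All 21 gamma members tested were called lower at P4, 2 of 11 alpha members and 3 of 21 beta members were, and none was higher. The comparison asks which genes change as L2/3 neurons mature, with sex as a term and a DEG threshold of 1 on the absolute log2FC. Stage and sequencing round cannot be told apart in it. Lower calls were made for 26 of 53 members, beside 24% of all genes called lower and 46.4% called in either direction. So the share among the alpha and beta members was below the share among all genes and the gamma share was above it. The median log2FC was -2.18 over the gamma, -0.44 over the beta and -0.99 over the alpha members, beside 0.03 over all genes.

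Pcdhgc3 ran from 73.5 through a median of 82.8 to 109.7 CPM in the 8 WT E19 libraries and from 9.09 through 14.6 to 20.9 CPM in the 6 WT P4 libraries. It fell 5.70-fold (log2FC -2.51, SE 0.175, adjusted p = 9.87e-09). Pcdhgc4 ran from 32.4 through 38.1 to 57.1 CPM at E19 and from 6.47 through 9.26 to 11.9 CPM at P4 (log2FC -2.10, SE 0.158, adjusted p = 2.19e-08). Both leading C-type isoforms were lower in every P4 library than in any E19 library. Pcdhgb6, the highest B-type isoform per kb, did likewise, from a median of 34.0 to one of 5.48 CPM (log2FC -2.35, SE 0.193, adjusted p = 5.49e-08).

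The 5 largest falls were in Pcdhga9, Pcdhgb8, Pcdhga1, Pcdhga5 and Pcdhgb2. Pcdhga9, an A-type isoform, ran from 1.79 through 4.05 to 6.05 CPM at E19 and from 0 through 0.0217 to 0.796 CPM at P4 (log2FC -5.23, SE 0.97, adjusted p = 0.000208). Pcdhgb8 ran from 1.36 through 2.27 to 7.11 CPM at E19 and from 0.0746 through 0.149 to 0.791 CPM at P4 (log2FC -3.50, SE 0.594, adjusted p = 9.43e-05). Pcdhga1 had a log2FC of -3.46 (SE 0.852, adjusted p = 0.00215), Pcdhga5 of -3.22 and Pcdhgb2 of -3.21. The size of some of these falls moved with the libraries used: Pcdhga9 had a log2FC of -7.50 without WT P4 female 2 and -3.94 without the 3 WT P4 males, and Pcdhgb2 one of -4.43 without WT P4 male 2. Pcdhgb5 had one of -2.06 (SE 0.495, adjusted p = 0.00181). For 20 of 21 gamma members no P4 library reached the lowest E19 library, beside 26.7% of all genes lower without overlap. The exception was Pcdhgc5, whose highest E19 library was at 6.99 CPM: WT P4 female 1 was at 7.08 CPM, and the P4 median was 1.60 CPM (log2FC -1.04, SE 0.393, adjusted p = 0.0283). Pcdhgc5 was not called without WT P4 female 2 or 3 or WT P4 male 2 or 3.

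The other clusters were less affected. In the beta cluster the called members were Pcdhb15 (log2FC -2.15), Pcdhb18 (-2.11, SE 0.586, adjusted p = 0.00494) and Pcdhb22 (-1.57, SE 0.345, adjusted p = 0.000896). The leading beta gene Pcdhb17 was under the fold threshold (log2FC -0.88, adjusted p = 0.00996). Pcdhb7 and Pcdhb9 had higher means at P4 and did not pass (log2FC 0.39 and 0.70), and Pcdhb8 had a log2FC of -0.10. In the alpha cluster Pcdha9 (-1.67, SE 0.574, adjusted p = 0.0177) and Pcdha12 (-1.41, adjusted p = 0.0187, and -2.04 without WT P4 female 1) were called. The alpha C-type isoforms were not: Pcdhac2 had a log2FC of -0.67 (adjusted p = 0.0495) and Pcdhac1 of 0.31.

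The cluster sums give the same picture in reads. The gamma sum was 4.68 times higher in the mean of the WT E19 libraries than in that of the WT P4 libraries, 351.1 ± 49.1 (n = 8) against 75.0 ± 8.69 CPM (n = 6). Without the 3 C-type genes the ratio was 4.50. The beta sum was 132.6 ± 19.98 against 105.7 ± 28.1 CPM, and the alpha sum 37.6 ± 9.71 against 21.2 ± 7.34 CPM. The order of the clusters therefore changed, with gamma first at E19 and beta first at P4 by the mean sums of reads, which are not corrected for length. The share of C-type reads in the gamma cluster was 38.0% ± 2.13 at E19 and 35.4% ± 3.83 at P4.

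Summed markers of some cell types, those of the L2/3 neurons among them, differed between stages without overlap. Upper-layer neuron markers were at 360.3 to 536.5 CPM in the WT P4 libraries and at 2435 to 3806 CPM in the WT E19 libraries. Astrocyte and radial glia markers were at 4128 to 7009 CPM at P4 and 1605 to 2349 CPM at E19, and endothelial and mural markers at 140.3 to 509.1 CPM and 24.6 to 80.5 CPM. Interneuron, oligodendrocyte, microglia, ependymal, progenitor and cell cycle, and choroid plexus markers overlapped between these stages. The part of any of these markers in the stage differences was not tested. Without the 3 WT P4 males, whose libraries correlated least among the WT groups, an alternative chosen after seeing the data, 26 members were called, of which 22 were among the 26 called with them. The 4 that lost their call were Pcdha12, Pcdhb15, Pcdhga5 and Pcdhgc5 (adjusted p = 0.119, 0.0719, 0.0555 and 0.231).

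**Figure D4:**
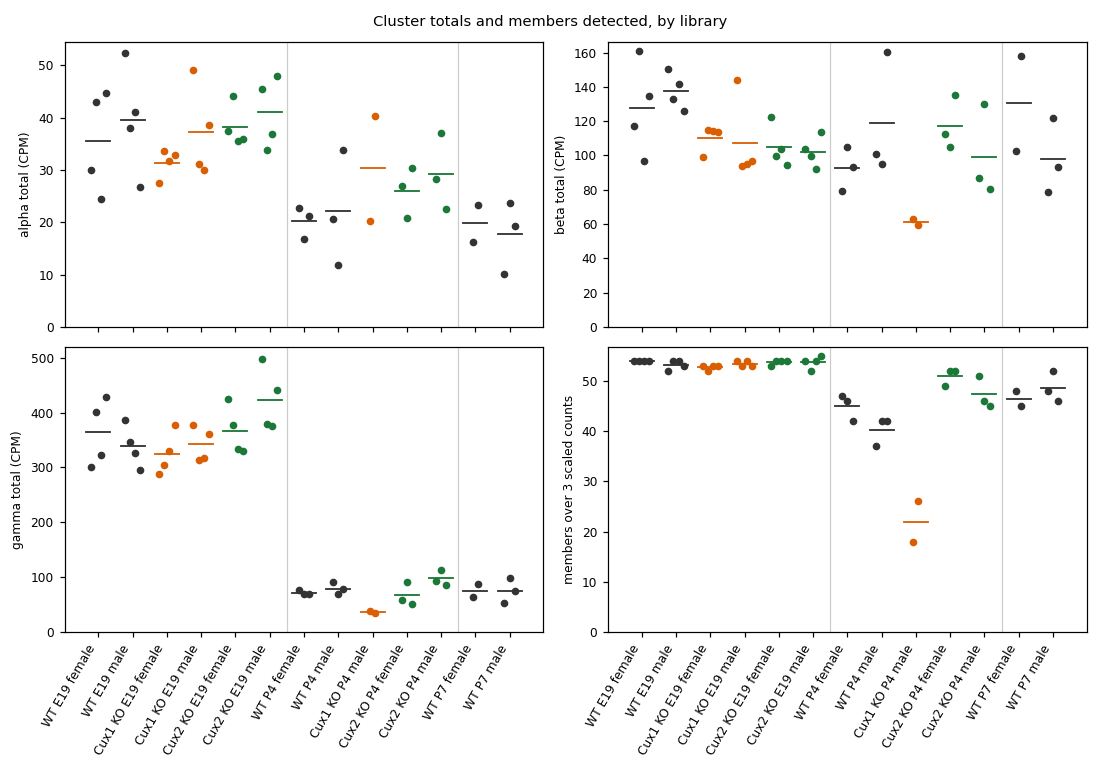
Summed CPM of the alpha, beta and gamma members and the number of members with more than 3 scaled counts (vertical axes) in each of the 43 libraries, by group. The gamma sums of the WT libraries fall from 294.7 to 428.5 CPM at E19 to 68.3 to 90.2 CPM at P4, while the beta sums overlap.

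**Figure D5:**
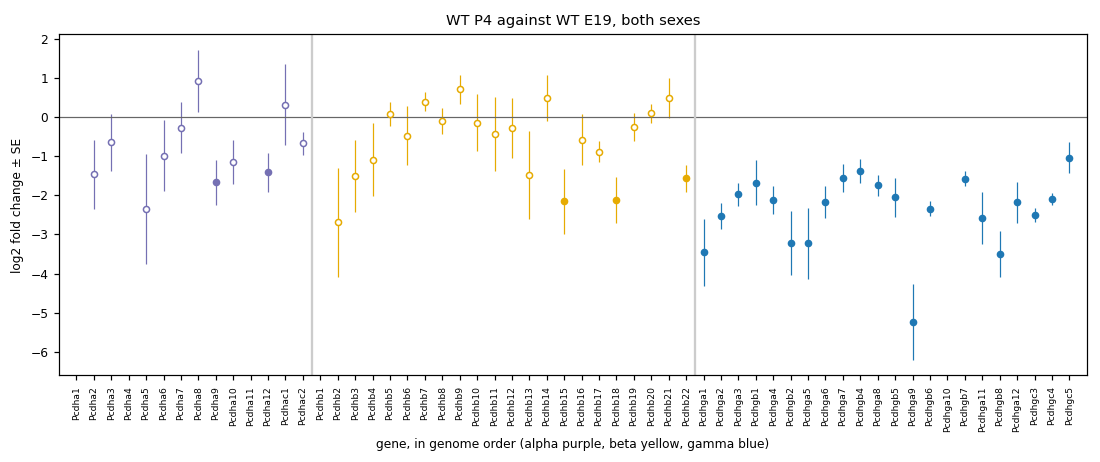
Log2 fold change with its SE (vertical axis) of WT P4 against WT E19 for each tested member in genome order, coloured by cluster, with filled points called. All 21 gamma points are filled and below 0, from -1.04 to -5.23, and 5 alpha and beta points are filled.

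From P4 to P7 edgeR called no member in WT neurons, and DESeq2 called some. By edgeR it was 0 of 50 members (2.34%) with 3 at an unadjusted p under 0.05 (23.3%), and DESeq2 with its prior called 2 (3.37%). These were Pcdhb18, at 1.26 CPM at P4 and 4.82 CPM at P7 (edgeR log2FC 1.85, adjusted p = 0.161), and Pcdhga8, at 2.73 and 0.934 CPM (log2FC -1.61, adjusted p = 0.0609). The gamma sum at P7 was 75.0 ± 18.5 CPM (n = 5). Pcdhgb8 at P7 was at 0.792 and 0.227 CPM in the females and at 0.439, 1.00 and 0.0716 CPM in the males. Pcdhgb5 was at 1.52 and 1.21 CPM in the females and at 2.08, 2.65 and 2.22 CPM in the males. Both isoforms thus stayed under their E19 ranges in all 5 P7 libraries.

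At P4 and P7 more members than at E19 were near 0 in 1 library and present in another of the same group. In each of the 6 E19 groups, 0 members with a mean of 1 to 20 CPM had a library at or under 0.225 CPM. Of all genes in that range, 0.397% to 1.45% did in the E19 groups, so the share was higher after E19 among all genes too. In WT at P4 there were 7 of 40 such members in females (17.5%, beside 9.79% of all genes in that range) and 13 of 42 in males (31.0%, beside 20.5%). In Cux2 KO at P4 there were 2 of 47 in females (4.26%, beside 5.87%) and 5 of 44 in males (11.4%, beside 8.11%). In WT at P7 there were 4 of 42 in females (9.52%, beside 6.03%) and 4 of 41 in males (9.76%, beside 5.34%). The share among the members was thus above that among all genes in each of these P4 and P7 groups but the Cux2 KO P4 females. No test was made of the difference, and members and genes were not matched for level within that range. Pcdhb14, for example, was at 4.78 to 9.46 CPM in 5 WT P4 libraries and at 0.0877 CPM in male 3. Pcdha5 did not overlap between the sexes in WT at P4, at 0.611, 1.02 and 4.97 CPM in the females and at 0, 0 and 0.0292 CPM in the males. It was not called (edgeR adjusted p = 0.607), and 1584 of all 19213 genes tested were higher in females without overlap.

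The 2 Cux1 KO P4 libraries had the fewest members of any group. They had 18 and 26 members above 3 scaled counts, beside 37 to 47 in WT P4 and 45 to 52 in Cux2 KO P4 libraries, and also fewer detected genes over the whole table. Of their members with a mean of 1 to 20 CPM, 14 of 26 had a library at or under 0.225 CPM (53.8%, beside 30.1% of genes). By unscaled counts, 15 members were over 3 counts in both libraries, 4 in the first alone and 15 in the second alone. Some members were near all or none, of which those that follow were chosen for their difference. The first library held 138 counts of Pcdhga7, 64 of Pcdhga4, 113 of Pcdhga11 and 102 of Pcdhb5, where the second held 0, 0, 6 and 3. The second held 166 counts of Pcdhgb7, 202 of Pcdhgc5, 455 of Pcdhb20 and 167 of Pcdhb12, where the first held 2, 0, 3 and 0. Pcdhgb8 was at 0 and 0.0695 CPM and Pcdhgb5 at 0.0502 and 0 CPM. Pcdhgc3 was present in both, at 12.9 and 17.98 CPM.

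Against WT P4 males, edgeR called 0 of 44 members in Cux1 KO (0%), with 10 lower at an unadjusted p under 0.05 (12.3%). DESeq2 with its prior called 4 as lower (8.09%): Pcdhb17, Pcdhga2, Pcdhgb4 and Pcdhga8. Pcdhb17 was at 0.101 and 0.139 CPM in Cux1 KO and at 7.05, 11.5 and 7.10 CPM in the WT males. Pcdhga8 was at 0 in both Cux1 KO libraries and at 4.60, 3.39 and 2.12 CPM in the WT males. The WT mean was 22.4 times a floor of 3 counts in the shallower library (0.151 CPM). That bound covers counting error only. Of the members tested, 16 were lower without overlap (23.1%) and 3 higher (18.6%). The gamma median log2FC was -2.64, or -2.19 with genes at 0 set to their bound, beside -0.18 over all genes. Of the 18 gamma members tested, 4 were at 0 in both Cux1 KO libraries, as were 2 of the 17 beta members. Those passed the filter only through the WT libraries, so their direction was fixed in advance. The gamma sums were 38.9 and 34.6 CPM against 68.3 to 90.2 CPM over all WT P4 libraries. Marker sums differed too, without overlap for 7 of 9 lists: ependymal markers were at 0.0502 to 0.0927 CPM in Cux1 KO and 24.1 to 75.1 in WT P4 males, endothelial and mural at 0.201 to 84.0 and 318.6 to 509.1, and upper-layer at 749.7 to 986.8 and 360.3 to 536.5. Oligodendrocyte markers were at 1107 to 1239 and 2088 to 2949 CPM, interneuron markers at 177.6 to 290.9 and 321.1 to 484.4, progenitor and cell cycle markers at 429.9 to 683.4 and 711.7 to 954.5, and microglia markers at 10.6 to 13.5 and 20.4 to 26.7, while astrocyte and choroid plexus markers overlapped. Their part in these values was not tested. The authors saw more death of Cux1 KO than of WT neurons during dissociation.

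Between Cux2 KO and WT neurons at P4 edgeR called no member, and DESeq2 called some. With both sexes edgeR called 0 of 51 members (0.0573%), and 3 had an unadjusted p under 0.05 (5.76%), Pcdhac2, Pcdhga9 and Pcdhgb8. DESeq2 called 0 with its prior (0.0648%) and 1 without it (0.46%), Pcdhgb8. Pcdhgb8 was at 0.791, 0.0746 and 0.488 CPM in the WT females and at 0.108, 0.152 and 0.146 CPM in the WT males. In Cux2 KO it was at 3.37, 8.19 and 0.0724 CPM in the females and at 8.36, 0.195 and 7.55 CPM in the males. Of the 6 Cux2 KO libraries 4 were above every WT library and the other 2 did not exceed the WT range. The log2FC was 4.17 (SE 1.16, adjusted p = 0.613), a large mean difference with a spread between libraries that left it far from the threshold.

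The 3 genes that had moved with Pcdhgb8 at E19 did not stand out at P4. Pcdhgb5 was at 1.15, 4.18 and 2.22 CPM in the WT females, 2.81, 1.67 and 0.117 in the WT males, 1.27, 2.74 and 1.23 in the Cux2 KO females and 2.13, 0.750 and 4.43 in the Cux2 KO males (log2FC 0.06). Pcdhb8 had a log2FC of 0.26 and Pcdhb9 of -0.45. Pcdhac2 was at a median of 4.87 CPM in WT and 9.52 CPM in Cux2 KO (log2FC 0.79, adjusted p = 0.812). In females alone edgeR called 0 of 53 (0%), with 2 at an unadjusted p under 0.05 (7.39%), and DESeq2 called 0 with its prior (0.237%) and 1 without it (0.853%), Pcdhb2. In males edgeR called 0 of 49 (0%), with 2 at an unadjusted p under 0.05 (5.76%). DESeq2 with its prior called 1 there (0.407%), Pcdha5, at 2.65, 2.85 and 1.52 CPM in Cux2 KO males against the WT males near 0 given above (edgeR adjusted p = 0.326). The interaction of genotype and sex at P4 was called for 0 members by edgeR (0%), with 2 at an unadjusted p under 0.05 (7.27%), and for 1 by DESeq2 without its prior (1.17%). It was 2.17 for Pcdhgb8 (SE 2.01, adjusted p = 0.846).

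Between the mutants at P4, in males, Pcdhgb1 was higher in Cux2 KO. It was at 0 in both Cux1 KO libraries and at 4.54, 6.16 and 2.91 CPM in the Cux2 KO males (edgeR adjusted p = 0.0491). The Cux2 KO mean was 30.1 times the floor of 0.151 CPM, a bound that covers counting error only. Pcdhgb1 was the 1 of 49 members called (2.98%). It was not called without the filter on low counts (adjusted p = 0.0628) or when any 1 of the 3 Cux2 KO males was left out (adjusted p 0.103 to 0.135). The 3 WT P4 males were at 0.180, 3.70 and 6.65 CPM, so one of them was near the Cux1 KO level. DESeq2 with its prior called 13 members (13.5%), Pcdhgb1 and 12 others: Pcdha6, Pcdhac1, Pcdhb3, Pcdhb14, Pcdhb17, Pcdhb18, Pcdhga2, Pcdhga6, Pcdhga8, Pcdhgb2, Pcdhgb4 and Pcdhgb5. All 21 gamma members had a higher mean in Cux2 KO, and 23 members were higher and 2 lower without overlap, beside 27.3% and 18.4% of all genes. Of the members tested, 5 gamma (Pcdhgb1 among them), 2 beta and 1 alpha were at 0 in both Cux1 KO libraries. Those could pass the filter only through the Cux2 KO libraries, so their direction was fixed in advance. With any 1 of the 3 Cux2 KO males left out, 0 members and 0 of all genes were called. Fits without a Cux1 KO library left 1 library in that group, so no conclusion is drawn from their counts.

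Between WT females and males edgeR called no member. At E19 edgeR called 0 of 53 (0.0461%) and 3 had an unadjusted p under 0.05 (3.67%), Pcdha9, Pcdhb4 and Pcdhga5, all lower in females. DESeq2 called 0 there with its prior (0.0305%) and 0 without it (0.044%). At P4 edgeR called 0 of 49 (0%) and 1 had an unadjusted p under 0.05 (7.28%), Pcdha5, while DESeq2 called 0 with its prior (0.512%) and 1 without it (1.09%). For P7 edgeR called 0 of 52 (0.0247%) and 2 had an unadjusted p under 0.05 (4.36%), Pcdhb17 and Pcdhga1, and DESeq2 called 0 with its prior (0.0634%) and 0 without it (0.36%). Pcdhb17 at P7 was at 17.1 CPM in the 2 females and 6.06 CPM in the 3 males on average (log2FC 1.50). Pcdhgb8 overlapped between the sexes at E19, P4 and P7, and Pcdhgb5 at E19 and P4. At P7 both females were below the 3 males for Pcdhgb5, as in 9.98% of all genes lower in females without overlap.

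Genes that act on the clusters or with their proteins were counted as 2 lists of 18. The regulators of promoter choice hold the CTCF and cohesin genes, DNA methylation enzymes and chromatin silencers. Calls in these lists were made in 2 of the comparisons. From E19 to P4 in WT, the regulators called lower included the histone methyltransferase Setdb1 (log2FC -1.87), the maintenance DNA methyltransferase Dnmt1 (-1.90) and the DNA demethylase Tet3 (-1.72). Of the interactors and effectors, 17 were tested in that comparison, where 46.4% of all genes were called in either direction and 24% lower. Nlgn1, a synaptic adhesion gene, was higher (2.34) and 6 were lower: the kinases Ptk2b (-2.28) and Prkca (-1.41), the WAVE complex gene Nckap1 (-1.03), the Wnt pathway gene Axin1 (-2.07), the neuroligin Nlgn2 (-2.74) and the atypical cadherin Celsr3 (-5.67). In Cux2 KO against Cux1 KO males at P4 the cohesin subunit Smc1a (1.33) and the cohesin loader Nipbl (1.30, adjusted p = 0.0491) were called higher (2.98%), and neither was when any 1 of the 3 Cux2 KO males was left out, where 0 of all genes were called.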

How the data were processed

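The deposited values were raw read counts per gene. The authors sequenced 60-nt single-end reads from a low-input kit, aligned them with HISAT2 to GRCm39 (Y-masked for females, YPAR-masked for males), removed reads duplicated more than 50 times and counted primary alignments with featureCounts on Ensembl annotation 108. The strand setting, and how a read that overlaps several genes was counted, are not given in the sources used here. Genes were tested on these counts with edgeR 4.0.16 (R 4.3.3; filterByExpr, TMM, quasi-likelihood test, Benjamini-Hochberg adjustment over all genes tested), and CPM are TMM-normalised. A member was called at an adjusted p under 0.05 and an absolute log2FC over 0.5 at E19 or 1 at P4, P7 and between stages, and in interactions by the adjusted p alone. The alternatives were DESeq2 1.42.0 with and without its fold-change prior, no filter, all groups in one fit, a replicate block and leaving out each library. Coordinates and unshared exonic bases came from GENCODE M39 (56236 of 56980 IDs matched). Members, gene lists and tests were chosen with earlier results of these data known. Named are Pcdhgb5, Pcdhgb8, the C-type isoforms, called members (the 5 of largest change where over 10 were called), the 3 highest and 2 lowest of each cluster in WT E19, members called by DESeq2 with its prior alone, and called genes of the related lists. Genes named beside these (neighbours of Pcdhgb5 and Pcdhgb8, members at an unadjusted p under 0.05, examples of gaps between libraries) were chosen after their values were seen. The scripts were tested on simulated counts. Replicate numbers were not taken to pair samples: in no comparison with 3 or more pairs did every pair of same-numbered libraries deviate together (correlation over 0.1). Between WT females and males at P7, which had 2 pairs, both did (correlation 0.157 and 0.225). Intervals and floors cover counting error only. No sequence is printed. One result of the related lists is not reported here.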

Additional observations from a re-analysis of the deposited data

Results flagged for a closer look

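In 72 groups of 4 libraries (Pcdhgb5, Pcdhgb8, Pcdhb8, Pcdhb9, the C-type isoforms and the cluster sums at E19), 6 held a library that stood apart from the other 3 by Dixon's ratio, where chance gives about 3.6. For Pcdhgb8, Cux2 KO male 1 was at 18.08 CPM (the others 8.726 to 9.76) and WT female 4 at 7.11 CPM (the others 1.996 to 2.608). For Pcdhac1, Cux2 KO male 3 was at 0.9932 CPM (the others 1.833 to 1.966) and WT male 3 at 0.5585 CPM (the others 2.075 to 2.353). The beta sum was 99.28 CPM in Cux1 KO female 1 (the others 113.6 to 114.8) and 143.8 CPM in Cux1 KO male 1 (the others 93.77 to 96.88).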

How the results depend on the processing

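Counts of called members moved by over 1.5 times in these cases, and no called direction reversed. The cause was not tested. Counts over all genes moved with the setting too. For Cux2 KO against Cux1 KO in P4 males edgeR called 589 genes (2.98%) and DESeq2 with its prior 2618 (13.5%). The member counts that follow are thus not shown to be particular to the members. A fit that left out a Cux1 KO P4 library had 1 library in that group. No conclusion is drawn from the count of such a fit. For DESeq2 without its prior the counts were 1 for WT sex at P4, 11 for Cux1 KO against WT in P4 males, 3 for Cux2 KO against WT in E19 females, 3 in E19 males, 1 in P4 females, 3 in P4 males and 1 at P4 with both sexes, 3 for Cux2 KO against Cux1 KO in E19 males and 17 in P4 males, 1 for Cux1 KO against WT at E19 with both sexes, 2 for WT P7 against P4 and 1 for the Cux2 interaction with sex at P4. With its prior they were 4 for Cux1 KO against WT in P4 males, 3 for Cux2 KO against WT in E19 females, 3 in E19 males and 1 in P4 males, 3 for Cux2 KO against Cux1 KO in E19 males and 13 in P4 males, and 2 for WT P7 against P4. Without the filter they were 1 and 2 for Cux2 KO against WT in E19 females and males, and 3 and 0 for Cux2 KO against Cux1 KO in E19 and P4 males. With all groups in one fit they were 9 for Cux1 KO against WT in P4 males, 2 for Cux2 KO against WT in E19 males, and 3 and 8 for Cux2 KO against Cux1 KO in E19 and P4 males. Leaving out 1 library gave 0 to 1 for Cux2 KO against WT in E19 females and 0 to 1 in E19 males, 2 to 4 with both sexes, 1 to 2 for Cux2 KO against Cux1 KO in E19 males, 0 to 14 in P4 males (14 without Cux1 KO male 2) and 0 to 1 for WT P7 against P4.

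With the replicate number as a block, which was not taken to pair the samples, 17 of 19 counts were unchanged. The count was 2 for Cux2 KO against WT at E19 with both sexes, where Pcdhgb5 had an adjusted p of 0.0663 and Pcdhb8 of 0.0588, and 0 for Cux2 KO against Cux1 KO in P4 males. Pcdhgb8 in Cux2 KO against Cux1 KO at E19 was called under each of the 15 alternatives run in either sex, and in Cux2 KO against WT at E19 its log2FC was 1.69 to 2.16 without 1 library. The E19 to P4 ratio of the gamma sums was 4.54 to 4.88 without 1 library and 4.74 with DESeq2 size factors. The limits are the 2 Cux1 KO P4 libraries in each comparison that uses them, and members near the floor of 3 counts, for which a missing signal was not detectable at this depth rather than absent.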
